A study of Homo sapiens with 12 samples.

Results

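RNA pulled down with an antibody to 7-methylguanosine (m7G) was compared between METTL1 knockdown and control THP-1 cells, region by region and gene by gene. THP-1 is a line of human monocytic leukemia cells, and all groups had been made adherent with the phorbol ester PMA at 100 ng/ml for 48 h before polyadenylated RNA was taken. The comparison used the immunoprecipitates (IP) alone, with 3 libraries labelled NC, taken as the control, and 3 labelled KD, which carried a short hairpin RNA against METTL1. The 3 input libraries of each condition, which hold the RNA before the antibody step, are given only beside IP values. Nothing in the labels says whether the 3 libraries of a group came from separate cultures, so p values measure the spread between libraries, which may be technical. The members are all regions of the deposited peak table with at least 20 reads summed over the 6 IP libraries, 7219 of 9958 regions. Of these, 6829 lay in 1 gene, and they named 3731 genes. At the threshold, 139 regions had exactly 20 reads and 136 had 1 read fewer.

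METTL1 is the catalytic subunit of a methyltransferase that works with WDR4 and places m7G on tRNA and, as described for some transcripts, inside mRNA. The same modified base forms the cap at the 5 prime end of nearly every mRNA, where RNMT makes it, so an m7G antibody can bind both capped ends and internal sites. The signal of a region in an IP library depends on how much of its RNA was present and on how much of that RNA the antibody held. No region overlapped METTL1, WDR4, RNMT or BUD23, and 0 of 11 genes of a list of m7G methyltransferases and cofactors had one, so the knockdown itself was not measured here.

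IP reads in member regions numbered 1471051 to 1670749 in NC and 1509310 to 1883331 in KD. Across regions, log2 signal correlated at 0.955 to 0.960 between NC libraries, at 0.957 to 0.966 between KD libraries and at 0.881 to 0.892 between an NC and a KD library. Signal is given as CPM, the reads of a region scaled to a fixed total of reads in member regions, scaled by the TMM method of edgeR. A value is that of 1 region, unless it is given as the sum over a gene. CPM of a gene sum are scaled to the reads of the regions that were summed, a smaller total, so they run higher. Two-sided quasi-likelihood F tests gave log2 changes of KD over NC with a standard error (SE), and a region or gene was called at an adjusted p under 0.05.

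The labelled cell type was checked against marker genes first, because the libraries labelled NC and KD differed in markers of other cells. Of 34 macrophage and monocyte markers, 12 had a region, among them the transcription factor SPI1 and the integrins ITGB2 and ITGAX, while CD14, CSF1R and ITGAM had none. Their summed signal was 800.6 to 916.6 CPM in NC and 1409 to 1453 CPM in KD. Of 20 pan-leukocyte genes 5 had a region, and their summed signal was 735.2 to 843.8 CPM in NC and 1639 to 1845 CPM in KD. By contrast, 11 of 22 genes of a list for HEK293, a human embryonic kidney line, had a region, with a sum of 12900 to 14390 CPM in NC and 959.7 to 1183 CPM in KD. In gene sums NEFM held 78.6% of the list's NC reads, and TCEAL9, which fell by 0.82 ± 0.10 on the log2 scale, 97.4% of its KD reads. PAX2, PAX8, SALL1 and KRT8 of that list had no region. Lymphoid, erythroid and hepatocyte lists had no region in 18, 15 and 14 genes. Whether the NC libraries hold RNA of a second cell population was not tested. In such bulk RNA, a change in the number of cells of a type and a change in RNA per cell cannot be told apart. Each loss and each gain below stands beside these sums.

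Start sites covered by regions that changed are shown here to give the transcripts a concrete form. Each line holds 40 bases before a start site listed by RefSeq (GRCh38.p14) in lower case and the first 20 transcribed bases in capitals. RPL28 and RPL35 carry the C followed by pyrimidines that is typical of ribosomal protein mRNAs, and HOXD13 was nearly absent from KD. AP1S2 stands for large gains outside the gene lists, CEBPB for the gains among macrophage markers and TGFB1 for those among secreted ligands. FOSL2 holds TGACTCA within its capitals.
RPL28 (chr19:55385892-55385951, plus strand): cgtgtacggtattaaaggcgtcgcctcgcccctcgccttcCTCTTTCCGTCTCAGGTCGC
RPL35 (chr9:124861938-124861997, minus strand): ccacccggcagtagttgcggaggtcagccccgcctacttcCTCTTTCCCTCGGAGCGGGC
HOXD13 (chr2:176092681-176092740, plus strand): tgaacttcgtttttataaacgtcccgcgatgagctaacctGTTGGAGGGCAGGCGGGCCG
AP1S2 (chrX:15854794-15854853, minus strand): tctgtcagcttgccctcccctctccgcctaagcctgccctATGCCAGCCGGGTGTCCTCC
TGFB1 (chr19:41353903-41353962, minus strand): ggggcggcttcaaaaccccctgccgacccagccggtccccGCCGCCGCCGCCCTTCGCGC
CEBPB (chr20:50190790-50190849, plus strand): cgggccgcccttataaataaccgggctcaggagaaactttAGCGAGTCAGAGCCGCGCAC
FOSL2 (chr2:28392818-28392877, plus strand): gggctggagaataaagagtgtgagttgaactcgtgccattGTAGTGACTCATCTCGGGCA

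Antibody-bound RNA changed in more than 1 in 3 regions, in both directions, and the losses were larger than the gains. Of 7219 regions tested, 2671 (37%) were called, with 1304 (18.1%) higher and 1367 (18.9%) lower in KD. By their names, 51.2% of regions came from a KD peak set and 48.8% from an NC peak set. In the KD set 769 rose and 579 fell, and in the NC set 535 rose and 788 fell. Regions can overlap, so 1 site can count more than 1 time. The 7219 regions formed 5284 clusters of overlapping regions, and with 1 region per cluster 1826 were called. The median log2 change was 0.95 among regions that rose and -1.34 among those that fell, beside -0.01 over all regions. Scaling to reads in these same regions centers the bulk of changes. The median over all regions and the balance of gains and losses therefore cannot show a shift shared by most regions. At least 2-fold changes numbered 1495 (20.7%), 599 gains and 896 losses, at least 4-fold changes 96 gains and 413 losses, and at least 16-fold changes 7 gains and 95 losses. In 1252 of the 1304 gains and 1328 of the 1367 losses the 3 KD values did not overlap the 3 NC values, as was so for 47.6% of all regions. Summed per gene, 1476 of 3730 genes (39.6%) were called, 724 (19.4%) up and 752 (20.2%) down, with 50 gains and 248 losses of at least 4-fold. A 95% interval within 2-fold on either side was reached by 2136 regions (29.6%). Of 4548 regions not called, 1643 had such an interval, which leaves room only for changes under 2-fold. For the other regions not called, a change was not detectable rather than absent.

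**Figure D1:**
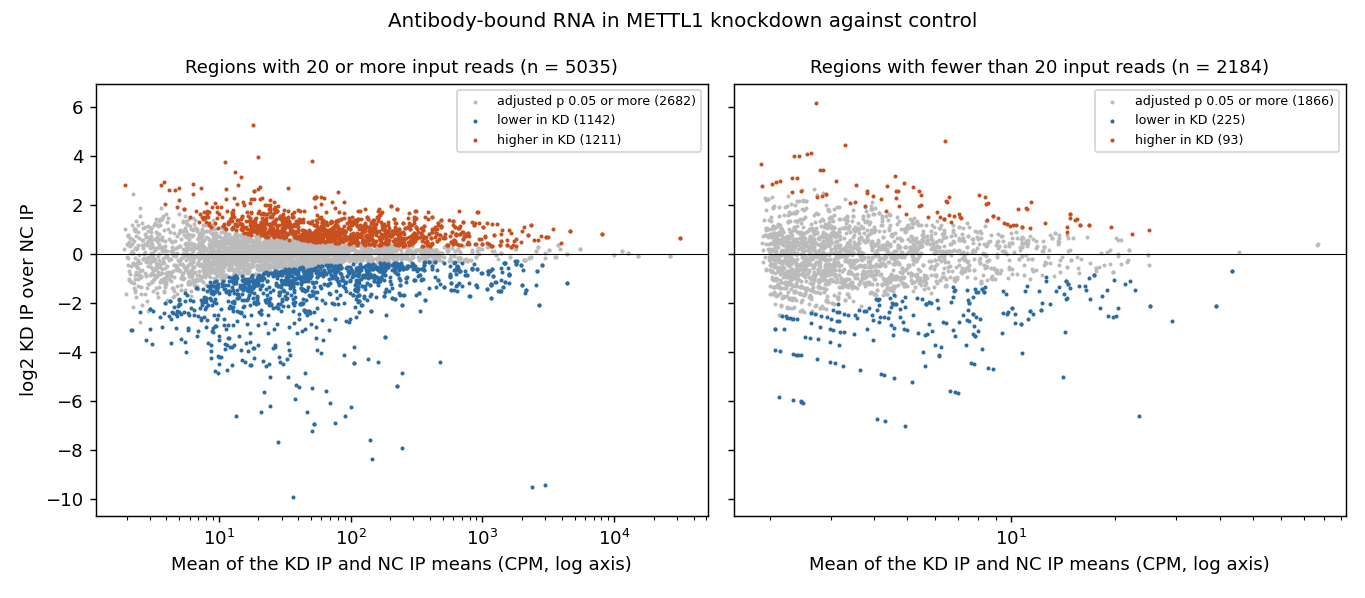
Log2 change of KD IP over NC IP (vertical axis) against the mean signal in CPM (log axis) for 5035 regions with 20 or more input reads (left) and 2184 with fewer (right). Orange points rose and blue points fell at an adjusted p under 0.05. Over both panels 95 called regions fell at least 16-fold and 7 rose as much.

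The deepest losses in KD were of neurofilament, neuronal, desmosomal and homeobox transcripts. NEFM, the medium neurofilament subunit (chromosome 8, 24917340 to 24917668), had 5942, 5502 and 6385 CPM in the NC libraries and 9.04, 7.03 and 9.94 CPM in the KD libraries. It was high in every NC library and under 10 CPM in every KD library, a log2 change of -9.42 ± 0.17 (adjusted p 1.1e-20). NEFL, the light neurofilament subunit, had 529, 416 and 532 CPM in NC and 1.13, 2.71 and 1.99 CPM in KD (log2 -7.93 ± 0.24, adjusted p 1.8e-16). BEX2, a small X-linked protein of neural tissue, had 287, 240 and 339 CPM against 1.13, 0.541 and 0.662 CPM (log2 -8.40 ± 0.30, adjusted p 2.4e-15). IRS4, an insulin receptor substrate well known from HEK293 cells (chromosome X, 108734522 to 108734793), had 66.3, 68.4 and 86.3 CPM in NC and no read in the 3 KD libraries. With 3 counts over the group as the floor, IRS4 was at least 125-fold lower in KD. Input showed the same regions at 14330 reads in NC and 5 in KD for NEFM, 1645 and 6 for NEFL, 935 and 3 for BEX2, and 199 and 1 for IRS4.

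Epithelial and patterning genes fell with them. DSP, which anchors keratin to desmosomes, had 269, 281 and 289 CPM in NC and 0.565, 3.25 and 0 CPM in KD, a log2 change of -7.60 ± 0.31 (adjusted p 1.6e-14) that became -9.50 without KD replicate 2. KRT18, a keratin of simple epithelia, had 14.2, 13.4 and 22.1 CPM against 0.565, 0 and 1.99 CPM (log2 -4.26 ± 0.65, adjusted p 1.5e-05), with -3.66 without KD replicate 2 and -5.56 without KD replicate 3. HOXC8, a homeobox factor of the body axis, had 116, 99.9 and 100 CPM in NC and 1.13, 0 and 1.33 CPM in KD (log2 -6.95 ± 0.37, adjusted p 2.5e-12), and -6.34 without KD replicate 2. In all 3 genes the highest KD value lay below the lowest NC value. Of 43 HOX genes and cofactors, 6 had a region and 5 fell, with a median gene change of -3.89, the exception being the cofactor MEIS2 (gene sum, log2 0.47 ± 0.27, adjusted p 0.18). Of 5 keratin, desmosome and junction genes with a region 4 fell, and PPL, a cornified envelope protein, rose (gene sum, log2 1.11 ± 0.30). The neuronal list had 13 genes with a region, of which 8 fell and 1 rose, with a median of -1.71. MAP1B, a microtubule protein of neurons, stood at 0.00 ± 0.10 within it as a gene. The riser was NEFH, the heavy neurofilament subunit (gene sum, log2 1.26 ± 0.14, adjusted p 4.4e-08), so the 3 neurofilament subunits did not move together. Of the 11 HEK293 genes with a region 9 fell, and WT1 and FGFR1 were not called (adjusted p 0.66 and 0.45). The share of all genes that fell was 20.2%. Several of these genes stand in more than 1 list, and the lists were chosen with such losses known.

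**Figure D2:**
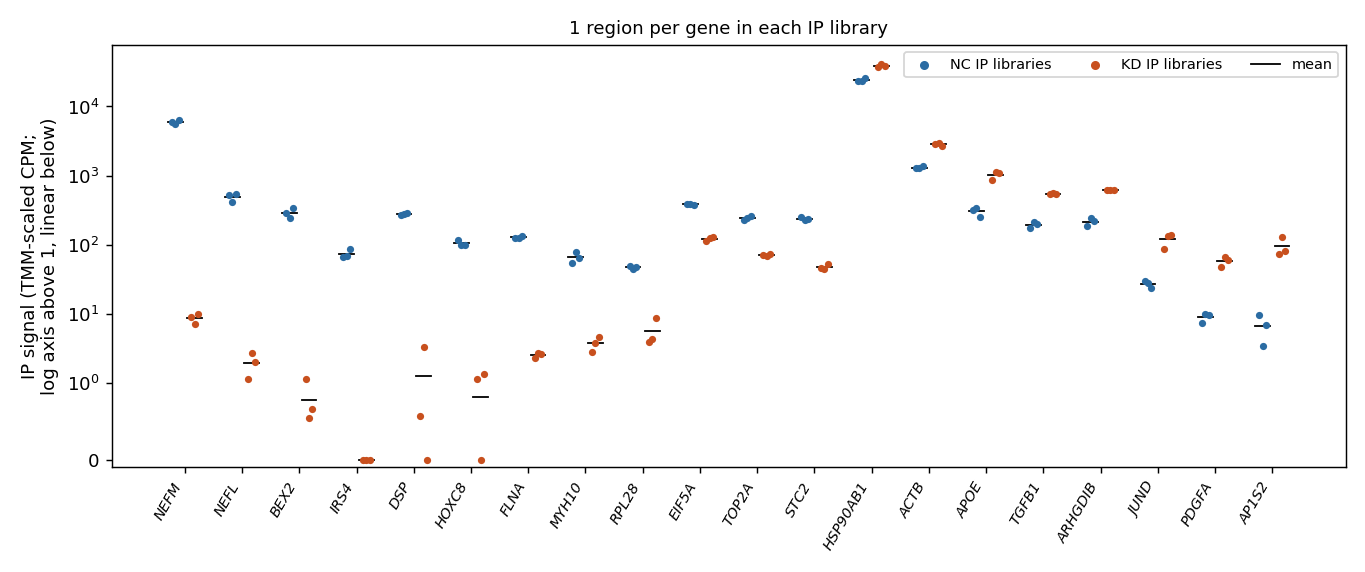
IP signal per library in TMM-scaled CPM (log axis above 1, linear below) for 1 region of each of 20 genes, NC in blue and KD in orange, with bars for the means. NEFM falls from 5502 to 6385 CPM in NC to under 10 CPM in KD, while APOE, TGFB1 and AP1S2 lie higher in all 3 KD libraries.

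Genes of the actin list both fell and rose. FLNA, the actin crosslinker filamin A, had 124, 127 and 135 CPM in NC and 2.26, 2.71 and 2.65 CPM in KD (log2 -5.62 ± 0.26, adjusted p 2.2e-13). MYH10, a non-muscle myosin heavy chain, had 55.0, 78.5 and 64.9 CPM against 2.83, 3.79 and 4.64 CPM (log2 -4.12 ± 0.30, adjusted p 6.6e-10). Both were low in every KD library. ACTB, cytoplasmic beta actin, rose from 1275, 1280 and 1353 CPM to 2851, 2946 and 2680 CPM (log2 1.12 ± 0.10, adjusted p 1.95e-08), and tropomyosin TPM4 from 38.5, 34.9 and 38.0 CPM to 91.0, 93.6 and 94.7 CPM (log2 1.32 ± 0.18, adjusted p 2.8e-06). Over the list, 10 of 20 genes with a region rose and 4 fell, beside 19.4% and 20.2% of all genes, so losses were about as frequent as over all genes. The median was 0.72 beside -0.02 for all genes. The gamma actin gene ACTG1 was, as a gene, at -0.29 ± 0.19 (adjusted p 0.24).

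Some myeloid genes were higher in KD. CEBPB, a transcription factor of macrophages, had 23.8, 24.1 and 12.4 CPM in NC and 94.4, 55.2 and 56.3 CPM in KD at its start site (log2 1.76 ± 0.27, adjusted p 1.6e-05). ITGB2, the beta chain of leukocyte integrins, rose from 59.5, 57.0 and 51.1 CPM to 111, 140 and 120 CPM (log2 1.14 ± 0.16, adjusted p 6.5e-06), and its gene sum by 0.59 ± 0.13. No KD value of these regions overlapped an NC value. Of the 12 macrophage markers with a region 6 rose and 0 fell, with a median of 0.60, beside 19.4% of all genes that rose. CD68, a glycoprotein of macrophage lysosomes, was not called as a gene (log2 0.37 ± 0.16, adjusted p 0.064), nor was the sum of LYZ, lysozyme (log2 -1.30 ± 0.93, adjusted p 0.29). A weak region of CD68 fell, from 5.10, 8.72 and 2.76 CPM to 1.13, 1.08 and 0 CPM (log2 -2.73 ± 0.90, adjusted p 0.0195). All 5 pan-leukocyte genes rose. ARHGDIB, a regulator of small GTPases in blood cells, had 187, 240 and 220 CPM in NC and 611, 619 and 611 CPM in KD (log2 1.51 ± 0.12, adjusted p 2.7e-09), and HCLS1, a cortactin-like protein of blood cells, gave 1.19 ± 0.12.

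CTSZ, a lysosomal carboxypeptidase, had 129, 123.4 and 137 CPM in NC and 326, 295 and 320 CPM in KD (log2 1.27 ± 0.13, adjusted p 5.2e-08). CYBB, the catalytic subunit of the phagocyte oxidase, had 172, 148 and 186 CPM against 277, 352 and 421 CPM (log2 1.05 ± 0.15, adjusted p 6.2e-06). Of 10 oxidase and lysosome genes with a region 7 rose and 0 fell, with a median of 0.45, beside 19.4% of all genes that rose. APOE, the apolipoprotein that macrophages secrete, showed 319, 341 and 254 CPM in NC and 858, 1128 and 1082 CPM in KD, a log2 change of 1.75 ± 0.14 (adjusted p 1.2e-09). Lipoprotein lipase LPL (log2 1.01 ± 0.12), squalene epoxidase SQLE (0.96 ± 0.13) and the desaturase SCD (0.75 ± 0.12) rose as well. In the lipid list 7 of 16 genes rose, 8 were not called and 1 fell, DHCR7, the last enzyme of cholesterol synthesis (gene sum, log2 -0.64 ± 0.25, adjusted p 0.041), and under DESeq2 0 genes of the list fell.

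Among genes of ligands, receptors and proteases, those that were called mostly rose. TGFB1, which encodes transforming growth factor beta 1, had 172, 209 and 198 CPM in NC and 539, 560 and 534 CPM in KD (log2 1.497 ± 0.12, adjusted p 2.7e-09). PDGFA, a platelet-derived growth factor chain, had 7.37, 10.1 and 9.67 CPM against 48.0, 67.1 and 60.3 CPM (log2 2.70 ± 0.27, adjusted p 4.2e-08). The KD libraries were the higher ones throughout and did not overlap NC. CCL22, a macrophage chemokine, rose by 2.04 ± 0.20 on the log2 scale, the activin subunit INHBA by 1.89 ± 0.21 and the procollagen protease BMP1 by 1.77 ± 0.18. In the growth factor list 8 of 14 genes with a region rose and 2 fell, FGF2 (gene sum, log2 -1.53 ± 0.53) and the receptor IGF1R, with 30 reads in NC and 1 in KD (gene sum, 32.05-fold lower, 95% counting interval 5.33 to 1308). Among 8 cytokine and receptor genes 3 rose and 0 fell, and TGFB1 is counted as a gain in both lists. Over all genes 19.4% rose and 20.2% fell. MMP14, a membrane-bound matrix protease, had 575, 459 and 548 CPM in NC and 1061, 1133 and 1400 CPM in KD (log2 1.18 ± 0.13, adjusted p 1.4e-07), and the urokinase gene PLAU rose by 1.65 ± 0.27. Of 7 matrix protease genes 4 rose and 0 fell, with ADAM17 losing its call in a region fit without NC replicate 2 or 3 or KD replicate 2 or 3 (adjusted p 0.13, 0.09, 0.082 and 0.055).

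Immediate early genes and the phosphatases that end MAP kinase signals rose in 8 of 15 cases and fell in 0, with a median of 0.90, beside 19.4% of all genes that rose. DESeq2 called 5 of the 15. JUND, an AP-1 subunit, had 29.5, 28.2 and 23.5 CPM in NC and 86.5, 133 and 136 CPM in KD (log2 2.12 ± 0.21, adjusted p 3.6e-08). DUSP2, a nuclear MAP kinase phosphatase, had 119, 106 and 68.4 CPM against 308, 308 and 430 CPM (log2 1.82 ± 0.18, adjusted p 3e-08). SRF, which drives many immediate early genes, had 568, 533 and 457 CPM against 1189, 1310 and 1263 CPM (log2 1.27 ± 0.12, adjusted p 1.4e-08). FOSL2, another AP-1 subunit whose start is shown above, had 108, 103 and 66.3 CPM against 185, 223 and 182 CPM (log2 1.08 ± 0.17, adjusted p 1.8e-05). The AP-1 genes JUN, JUNB and FOSB were not called (gene sums, log2 0.30 ± 0.12, -0.075 ± 0.14 and 0.39 ± 0.86). In the list for NF-kappaB and innate signalling 5 of 13 genes rose and 1, IRF3, fell by 0.32 ± 0.12 as a gene. SOCS3, a cytokine signal inhibitor, rose from 3.97, 6.04 and 3.45 CPM to 15.8, 16.2 and 17.2 CPM (log2 1.86 ± 0.41, adjusted p 0.00088), although its input held only 3 reads in NC and 13 in KD.

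Ribosomal protein genes fell almost without exception. Of 14 with a region 12 fell and 0 rose, with a median of -1.04, beside 20.2% of all genes that fell and 19.4% that rose. RPL28, a protein of the large subunit, had 49.3, 44.3 and 47.7 CPM in NC and 3.96, 4.33 and 8.61 CPM in KD at its start site (chromosome 19, 55385931 to 55386112). All KD values lay below all NC values, with a log2 change of -3.08 ± 0.31 (adjusted p 5.9e-08). In input the same region held 60 reads in NC and 61 in KD (log2 -0.10, adjusted p 0.88), and the difference between its IP and input changes was not called. RPL35, whose capitals above open with the same bases as those of RPL28, had 253, 253 and 309 CPM against 122, 122.8 and 133 CPM (log2 -1.11 ± 0.13, adjusted p 7.7e-07). RPS2, of the small subunit, had 1772, 1477 and 1637 CPM against 587, 691 and 825 CPM (log2 -1.22 ± 0.13, adjusted p 8.5e-08). RPL31 and RPL22 were not called (gene sums, log2 -0.99 ± 0.89 and 0.865 ± 0.86).

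Of 20 translation factor genes 3 rose and 6 fell, with a median of -0.04, beside 19.4% and 20.2% of all genes. EIF5A, which helps ribosomes through difficult peptide bonds, had 385, 382 and 380 CPM in NC and 111, 123.3 and 128 CPM in KD (log2 -1.66 ± 0.13, adjusted p 9.2e-10). The elongation factor subunit EEF1G fell by 1.33 ± 0.21. PABPC4, a poly(A) binding protein, rose from 952, 1038 and 1212 CPM to 2174, 2192 and 1939 CPM (log2 0.98 ± 0.12, adjusted p 5.3e-07). Of the cap-binding genes, EIF4E2 rose by 0.28 ± 0.11 as a gene (adjusted p 0.038), and EIF4E was measured with little precision (gene sum, log2 1.09 ± 0.80, adjusted p 0.3).

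Cell cycle genes fell in 11 of 16 cases and rose in 2, with a median of -1.501, beside 20.2% of all genes that fell and 19.4% that rose. TOP2A, the topoisomerase of dividing cells, had 225, 243 and 256 CPM in NC and 71.8, 68.2 and 74.2 CPM in KD (log2 -1.75 ± 0.14, adjusted p 1.7e-09). CDC25A, a phosphatase that activates cyclin-dependent kinases, had 83.9, 46.9 and 51.8 CPM against 7.91, 8.12 and 6.62 CPM (log2 -3.0 ± 0.29, adjusted p 3.8e-08). CDK2 fell by 1.31 ± 0.15 on the log2 scale, and its input held 141 reads in NC and 112 in KD. The D cyclins went opposite ways as genes, with CCND2 at -3.17 ± 0.37 and CCND1 at 1.38 ± 0.15. CCND1 is of unlisted strand here and had regions on both strands, so part of its sum may belong to the other strand.

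Of 15 stress response genes 4 rose and 6 fell, beside 19.4% and 20.2% of all genes. STC2, a secreted glycoprotein induced by the integrated stress response, had 251, 229 and 234 CPM in NC and 45.8, 44.4 and 52.3 CPM in KD (log2 -2.33 ± 0.15, adjusted p 5.5e-11). The stress gene NUPR1 (log2 -2.36 ± 0.25) and DDIT4, an inhibitor of mTORC1 (log2 -1.51 ± 0.17), fell too, as did the gene of the central factor ATF4 (gene sum, log2 -0.90 ± 0.12, adjusted p 1.4e-06). VEGFA rose from 541, 520 and 597 CPM to 1080, 958 and 976 CPM (log2 0.86 ± 0.11, adjusted p 2.2e-06). The other genes that rose were PPP1R15A, CEBPB and ATF5 (gene sums, log2 0.73 ± 0.09, 1.79 ± 0.27 and 0.49 ± 0.11). PPP1R15A held the most IP reads of the list, 40387. The summed signal of the list was 5332 to 6210 CPM in NC and 7371 to 7826 CPM in KD, so the list did not fall as a whole. Of the BCL2 family, 1 of 8 genes was called, PMAIP1, the death gene NOXA, which fell from 26.1, 42.2 and 32.5 CPM to 8.48, 3.25 and 7.95 CPM (log2 -2.36 ± 0.35, adjusted p 1.3e-05).

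HSP90AB1, a cytosolic chaperone and the brightest region that was called, had 23230, 23590 and 26070 CPM in NC and 37250, 40630 and 38330 CPM in KD (log2 0.67 ± 0.10, adjusted p 7.4e-06). Its paralog HSP90AA1 was, as a gene, at 0.06 ± 0.09 (adjusted p 0.66), and 2 of 7 chaperone genes rose and 0 fell. Of 6 iron and oxidative stress genes 5 rose, among them the ferritin heavy chain FTH1 (log2 0.77 ± 0.12), while SOD1, the cytosolic superoxide dismutase, fell by 0.90 ± 0.12. GCLC, of glutathione synthesis, rose from 2.83, 1.34 and 0 CPM to 19.2, 20.02 and 23.8 CPM (log2 3.76 ± 0.53, adjusted p 6.3e-06, or 4.81 without NC replicate 1). Glycolysis was split, 4 up and 4 down of 11, with PKM at 0.60 ± 0.11, LDHB at -1.28 ± 0.16 and the gene sum of GAPDH at -0.01 ± 0.17. Beside these counts for chaperone, iron and glycolysis genes, 19.4% of all genes rose and 20.2% fell.

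The remaining lists held few genes or small shifts. In antigen presentation 1 of 5 genes rose, CD74, the invariant chain, from 40.2, 31.5 and 40.1 CPM to 71.8, 84.9 and 101 CPM (log2 1.20 ± 0.20, adjusted p 3.7e-05), and 1 fell, PDIA3. PDIA3 lost its call without NC replicate 1 or 3 or KD replicate 2 (adjusted p 0.14, 0.059 and 0.11). Among 6 genes of an oncofetal RNA-binding list 2 rose and 2 fell. LIN28B, a blocker of let-7 processing, fell from 16.4, 13.4 and 27.6 CPM to 2.26, 0.541 and 0 CPM (log2 -4.19 ± 0.62, adjusted p 1e-05, or -5.68 without KD replicate 1), while HMGA2, a chromatin protein of early development, rose by 0.88 ± 0.24, with an adjusted p of 0.0055 that was 0.091 in the fit of 12 libraries. Of 4 fibroblast genes with a region 1 rose and 1 fell. Over all genes 19.4% rose and 20.2% fell.

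**Figure D3:**
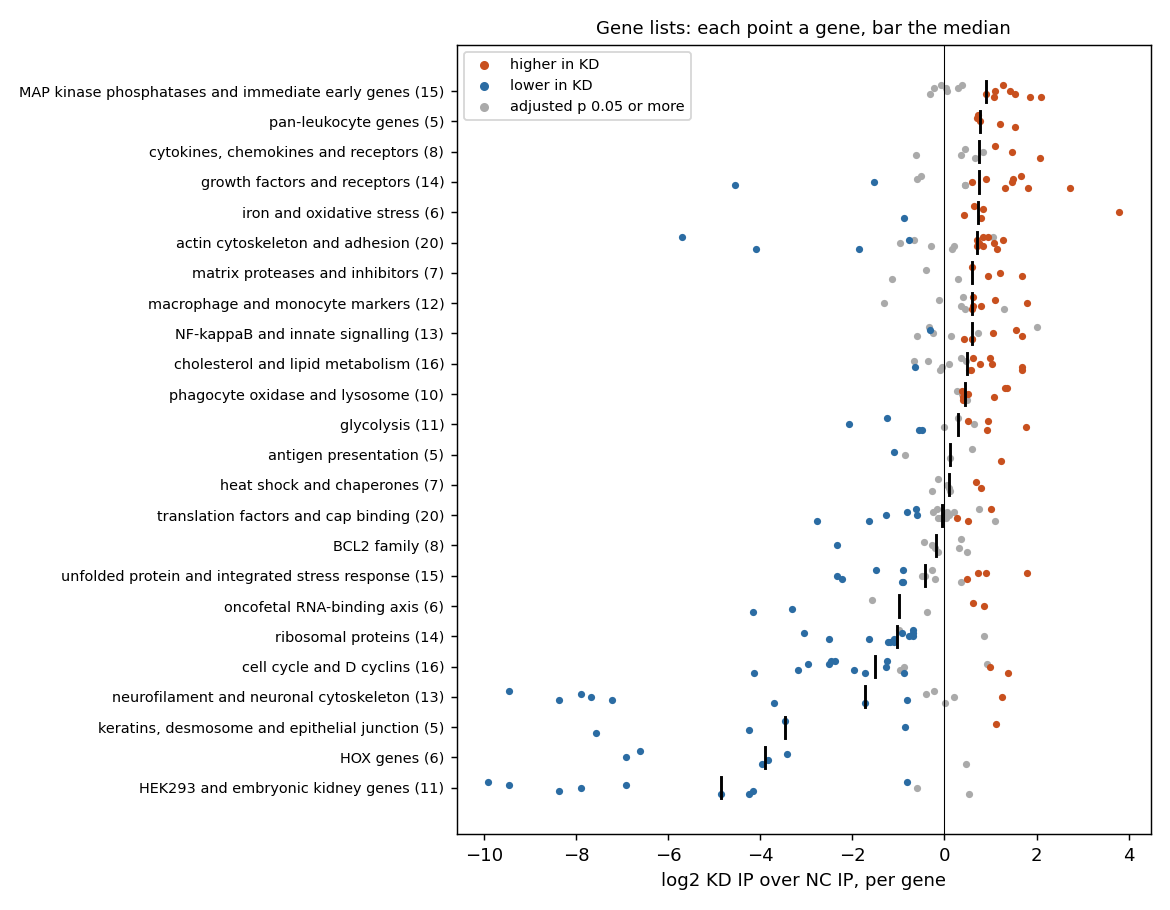
Log2 change of KD IP over NC IP per gene (horizontal axis) for 24 gene lists with at least 5 genes that had a region, with the number of genes that had a region in brackets; orange genes rose, blue fell, grey were not called, and black bars are medians. Medians run from -4.84 for the HEK293 list to 0.90 for MAP kinase phosphatases and immediate early genes.

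Outside the lists, several gains were large and measured in input as well. AP1S2, an adaptor subunit of clathrin-coated vesicles, had 9.64, 3.35 and 6.91 CPM in NC and 73.5, 129 and 81.5 CPM in KD at its start site (log2 3.79 ± 0.31, adjusted p 2.4e-09). SNTB1, a syntrophin of the dystrophin complex, had 3.40, 3.35 and 0 CPM against 23.7, 48.2 and 39.7 CPM (log2 3.96 ± 0.47, adjusted p 6.9e-07). Among the brightest regions called, CAP1, an actin regulator, rose by 0.84 ± 0.10, RAB13, a vesicle GTPase, by 0.94 ± 0.14, and YBX1, an mRNA-binding protein, by 1.03 ± 0.12. SRSF11, a splicing factor, fell by 1.21 ± 0.10, HMGB2, a chromatin protein of dividing cells, by 2.07 ± 0.11, and NCL, nucleolin, by 0.68 ± 0.11. These 6 regions held at least 3146 reads in each input group.

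Regions with fewer than 20 reads over the 6 input libraries were measured poorly in input and were followed mainly in IP. There were 2184 of them in 1514 genes, and none was without any input read. Their IP depth was a median of 34 reads, against 408 for the other 5035 regions, and their median SE was 0.77 against 0.23 on the log2 scale. Of the 2184 regions, 318 (14.6%) were called, 93 (4.26%) higher and 225 (10.3%) lower in KD, beside 46.7% of regions with more input. Gains lay in 71 genes and losses in 163, with medians of 1.98 and -2.49 on the log2 scale, and the median of all 2184 was -0.15. An interval within 2-fold was reached by 35 of them (1.6%), so most could show only large changes. Groups did not overlap in 605 (27.7%), beside 47.6% of all regions. For 1042 genes every region was this weak in input, and 45 of them rose and 119 fell as genes. Over all genes 19.4% rose and 20.2% fell.

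The clearest of these losses was HOXD13, a homeobox factor of limb and urogenital patterning, at its start site (chromosome 2, 176092720 to 176092989). It had 49.3, 51.6 and 38.0 CPM in NC and 0, 0.541 and 0.662 CPM in KD, while its input held 10 reads in NC and 0 in KD. The ratio was 119-fold with a 95% counting interval of 32.7 to 992. SMARCD3, a chromatin remodelling subunit, had 7.94, 13.4 and 8.29 CPM in NC and no KD read, at least 16.7-fold lower, with 8 and 2 input reads. RAC3, a small GTPase of neurons, had 9.64, 8.72 and 7.60 CPM and no KD read, at least 14.9-fold lower. RPRML was at least 13.8-fold lower and COQ4, of ubiquinone synthesis, at least 8.72-fold. COQ4 had 2 input reads in NC and 2 in KD, so input could not place it.

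Among the gains of weakly measured genes, several had at most 1 or 2 reads in NC. MYPOP, a repressor related to MYB proteins, had 0, 0 and 1.38 CPM in NC and 5.09, 22.7 and 9.27 CPM in KD at its start site, 29.8-fold (95% counting interval 7.93 to 251). Its log2 change of 4.64 was 3.84 without KD replicate 2 and 7.40 without NC replicate 3. IBSP, a bone matrix protein, had 0, 0.671 and 0 CPM against 5.65, 4.87 and 8.61 CPM, 29.4-fold (4.90 to 1195), with 0 and 7 input reads, and its log2 change of 4.47 was 6.42 without NC replicate 2. GALNT10, a glycosyltransferase of the Golgi, had 0, 0 and 0.691 CPM against 5.09, 4.33 and 5.30 CPM, 22.9-fold (3.75 to 942), with a log2 change of 4.10 that was 6.06 without NC replicate 3. BHLHE22, a neural transcription factor, had no NC read and 8.48, 0.541 and 7.29 CPM in KD, at least 8.26-fold higher, with 1 KD library far below the other two. GIMAP6 lost its call without NC replicate 2 or 3 or KD replicate 2 (adjusted p 0.059, 0.063 and 0.14), and GOLGA7B without the same libraries (0.054, 0.057 and 0.065).

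**Figure D4:**
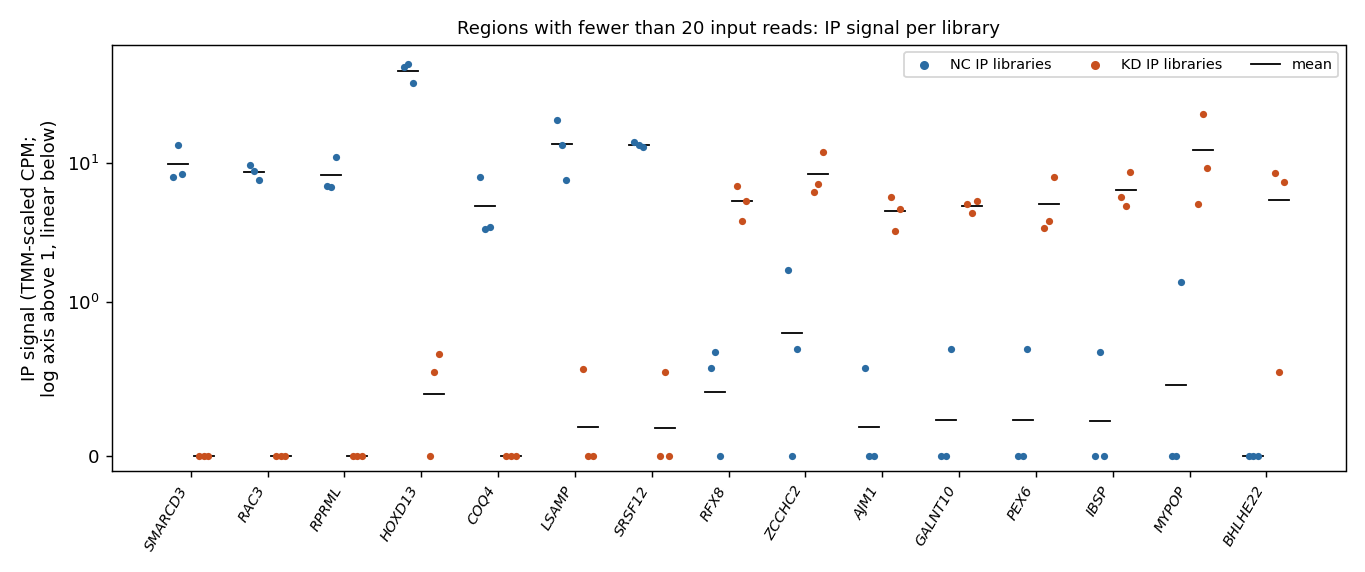
IP signal per library in TMM-scaled CPM (log axis above 1, linear below) for 15 genes whose region held fewer than 20 input reads, NC in blue, KD in orange, bars for means. HOXD13 lies at 38.0 to 51.6 CPM in NC and under 1 CPM in KD, and the genes on the right lie under 2 CPM in NC.

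Input changed in both directions too, and no region was called for a difference between its IP and its input change. In a fit of all 12 libraries, 2350 of the same 7219 regions (32.6%) were called in input, 1140 (15.8%) higher and 1210 (16.8%) lower in KD. The test of the difference between the IP and the input change called 0 of 7219 regions in edgeR, with 965 at an unadjusted p under 0.05, the lowest adjusted p being 0.0513. In simulated data it recovered 43% of planted 4-fold and 19% of planted 2-fold changes, against 77% and 51% for the IP comparison of regions. A region not called may therefore still differ between its IP and its input change. The fit of 12 libraries also treated IP and input libraries of one number and condition as independent. The count was 29 in DESeq2, 9 higher and 20 lower. In edgeR it was 5 without NC IP replicate 1, 3 without NC input replicate 1 or KD input replicate 3, 2 without KD IP replicate 2 or 3, and 1 without KD input replicate 1 or 2. Among the 318 weak regions called in IP, input was called in 6 of 93 gains and 51 of 225 losses.

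Few genes had regions called in opposite directions. Of 223 genes with at least 2 called regions, 9 had regions called in opposite directions. A test of each region against the rest of its gene called 33 of 2229 regions (1.48%), in 27 of 941 genes. ANO8, a membrane-associated protein of the anoctamin family, was the clearest. Its region at 44% of the gene (chromosome 19, 17329451 to 17330004) had 44.2, 40.9 and 64.9 CPM in NC and 3.39, 2.16 and 5.96 CPM in KD (log2 -3.72 ± 0.35, adjusted p 2.3e-08). Its region at 54% (17328162 to 17329002) had 52.2, 46.3 and 25.6 CPM against 101, 102 and 106 CPM (log2 1.31 ± 0.20, adjusted p 2.3e-05), and the within-gene test gave an adjusted p of 2.3e-08 for the first. ZBTB7A, a zinc finger repressor of blood cell lineages, rose in 4 regions by 0.98 to 1.52 on the log2 scale. Its last region, at 99% of the gene, fell from 44.2, 49.0 and 40.7 CPM to 13.6, 20.02 and 23.2 CPM (log2 -1.24 ± 0.25, within-gene adjusted p 2.5e-07), with 95 and 96 input reads in NC and KD.

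GNAS, ZEB2 and CALD1 were chosen after their values were seen, as genes whose regions differed in size of change. GNAS, the stimulatory G protein subunit, had a region with 511, 379 and 401 CPM in NC and 1530, 1472 and 1229 CPM in KD (log2 1.71 ± 0.13). A second region further downstream had 663, 652 and 633 CPM against 600, 535 and 447 CPM (log2 -0.30 ± 0.12, adjusted p 0.057, within-gene adjusted p 6e-06). ZEB2, a zinc finger repressor of monocytes, stood at 0.05 ± 0.14 near its 5 prime end (within-gene adjusted p 2.5e-05) and at 1.199 ± 0.11 in a region near its 3 prime end with 23165 IP reads. CALD1, which binds actin and myosin, fell by 1.91 ± 0.32 in one region (within-gene adjusted p 0.000129) and fell by 4.402 ± 0.16 in another. CEP250, NR2F1, CYTH2, HDAC5, GRWD1 and SHANK1 each had at least 1 region or within-gene call that was lost without 1 of several libraries. ZBTB7A lost a within-gene call too, in a region other than its last. That was so without NC replicate 2 or 3 (adjusted p 0.14 and 0.12) or KD replicate 1, 2 or 3 (0.096, 0.056 and 0.054). Over all regions the within-gene test called 21 without NC replicate 1 or KD replicate 1 and 17 without KD replicate 2.

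**Figure D5:**
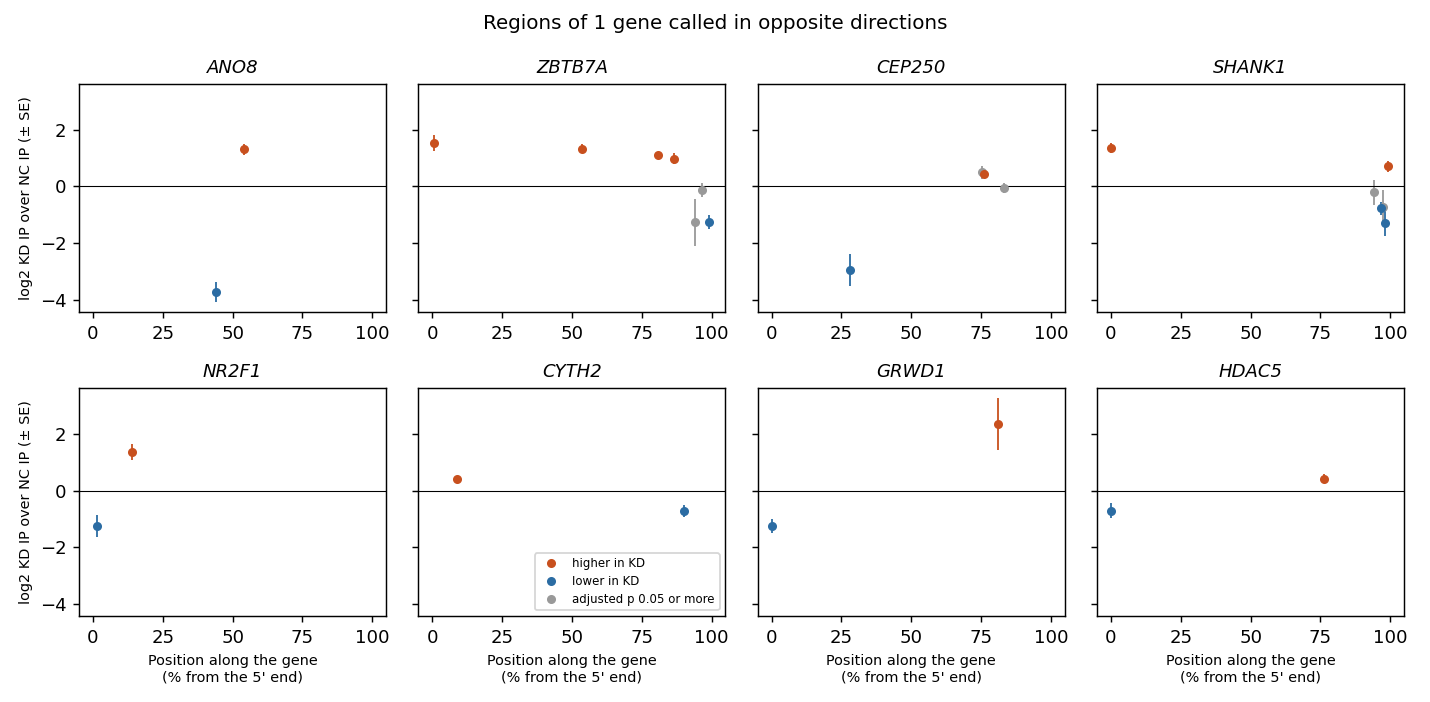
Log2 change of KD IP over NC IP with its SE (vertical axis) by position along the gene in percent from the 5 prime end, for 8 of the 9 genes with regions called in opposite directions. Orange regions rose, blue fell and grey were not called; ANO8 has one region at -3.72 and another at 1.31.

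Gains and losses were about as frequent at gene starts as elsewhere. Of 1937 regions within 100 bases of a listed start, 18.5% rose and 17.2% fell, and of 3570 others 17.5% rose and 19.2% fell. Among 1103 genes with a region over a listed start and a promoter window of 300 bases (250 before and 50 after), 197 rose, 197 fell and 709 were not called. TGACTCA, the letters bound by AP-1, searched on both strands, was in 5.58% of windows of genes that rose, 0.508% of those that fell, 2.4% of those not called and 4.95% of all 35116 windows. A C followed by 4 bases each C or T at the start site, as in RPL28 and RPL35, was found in 2.54%, 6.09%, 4.37% and 4.07%. CCAAT was in 31.5%, 40.1%, 35.8% and 34.6%, and GGGCGG, the letters bound by SP1, in 85.8%, 78.7%, 83.2% and 45%. These shares describe letters in the windows and were not tested.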

How the data were processed

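Per the labels, polyadenylated RNA of THP-1 cells was immunoprecipitated for m7G and sequenced on a DNBSEQ-T7. Per the submitters' processing notes, fastp 0.23.4 processed the reads, and GRCh38 is the genome build. The aligner, peak caller and counter are not given in the sources used here. The authors deposited raw read counts per peak and library, without normalization. The deposited region length, in bases, was used for description only. Groups and replicate numbers came from the library names.

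Regions with at least 20 IP reads went into edgeR 4.0.16 (R 4.3.3; TMM scaling, quasi-likelihood F test, 6 IP libraries, 4 residual degrees of freedom), with Benjamini-Hochberg adjustment over all regions. SE is the log2 change divided by the square root of F. Reads were summed per gene over 1 region per overlapping cluster, the one with most IP reads. Regions were named by overlap with RefSeq genes (GRCh38.p14) on the strand of the region, or by overlap alone where a gene's strand was not listed, and 8 genes then had regions on both strands. Regions opposite to a gene were left out of it. Within-gene tests used diffSpliceDGE, and input and difference values came from a fit of 4 groups (12 libraries, 8 residual degrees of freedom). Where a group had 0 reads, the bound takes 3 counts for the whole group. With 1 to 3 reads in a group, the ratio has an exact binomial interval (95%). Both cover counting error only, since reads are not independent molecules.

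Named regions were the 10 highest and 10 lowest called without overlap, the same among regions with under 20 input reads, the 5 brightest called in each direction, up to 4 per gene list by smallest p, and genes with regions called in opposite directions; not all are printed. The members and lists were chosen with earlier results of these data known. Alternatives were DESeq2 1.42.0, library size, other minimums, filterByExpr, a replicate block, 1 fit of 12 libraries, 1 region per cluster, other thresholds and leaving out each library. The scripts were tested on simulated data. Replicate pairs differed by more than sampling noise, with a chi-square per degree of freedom of 3.54 to 7.07. Deviations of NC IP and KD IP libraries of one number correlated at -0.0489 to 0.0215, so these were not treated as pairs. Whether the IP and input libraries of one number and condition pair was not checked. The fit of 12 libraries treated them as independent. A few regions and genes among these are not reported here.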

Additional observations from a re-analysis of the deposited data

How the results depend on the processing

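Counts of regions (2671) and genes (1476) called stayed within 1.5 times under library-size scaling, DESeq2, other read minimums, a replicate block and 1 fit of 12 libraries, and ranged from 2306 to 2525 regions and from 1278 to 1417 genes when single libraries were left out. At least 2-fold changes numbered 1495 (599 higher, 896 lower), and with 1 region per overlapping cluster 856 were higher, fewer by construction. The 318 calls among regions weak in input (93 higher, 225 lower) became 195 (56 and 139) with at least 50 IP reads, 186 (54 and 132) with filterByExpr, 168 (34 and 134) with 12 libraries in 1 fit and 163 (41 and 122) with fewer than 10 input reads, and DESeq2 called 55 higher. Apart from the stricter minimums, which test fewer regions, the cause was not tested. Without single libraries they ranged from 243 to 297. Within-gene calls ranged from 17 to 28 without single libraries. The difference of IP and input changes gave 29 calls (9 higher, 20 lower) with DESeq2, 3 (2 and 1) with a replicate block, and 0 to 5 without single libraries, with 0 to 4 higher and 0 to 1 lower. A replicate block gave 2496 regions, 1391 genes, 264 weak regions and 26 within-gene calls. Of 2339 values of 192 named regions, 2160 kept direction and call, 171 lost the call, 8 gained it and 0 reversed. A setting with 0 input reads was not run, since no region has 0. Regions weak in input had a median of 34 IP reads and a median SE of 0.77 on the log2 scale.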

Other observations

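Some gene families outside the lists were looked at after values had been seen, and they are given as gene sums with no test of the family. Their CPM are on the scale of gene sums and cannot be set beside the CPM of regions. On this scale BEX2, which had 1 region, stood at 546.2 CPM in NC replicate 1, above its region value. All 5 MCM helicase genes with a region fell, with a median log2 change of -2.50, among them MCM8, a helicase of DNA repair, from 266, 389 and 313 CPM in NC to 54.2, 45.9 and 57.5 CPM in KD (log2 -2.62 ± 0.19, adjusted p 2.9e-11). Of 116 genes on the X chromosome 46 fell and 18 rose, with a median of -0.48, beside 20.2% and 19.4% of all genes. MAP7D2, a microtubule protein, fell from 648, 624 and 625 CPM to 37.6, 25.04 and 30.7 CPM (log2 -4.34 ± 0.17), and HMGB3, a chromatin protein, fell by 1.66 ± 0.11. Of 7 tubulin genes 3 fell and 0 rose, including TUBA1B (log2 -0.86 ± 0.10) and TUBG1 (log2 -1.16 ± 0.20). RAB GTPase genes rose in 5 of 23 cases and fell in 1. ZNF genes were split, 10 up and 12 down of 81, as were SLC transporter genes, 13 up and 13 down of 66.

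Of 9 mitochondrial genes with a region 2 rose and 2 fell, close to the 19.4% and 20.2% of all genes. The gains were in regions that overlap the tRNA genes TRNA (alanine) and TRNN (asparagine). Whether their reads came from these tRNAs or from other transcripts over the same bases was not tested. TRNA had 460, 349 and 542 CPM in NC and 626, 590 and 1022 CPM in KD (log2 0.72 ± 0.17, adjusted p 0.0013), and TRNN rose by 0.64 ± 0.18. ND3, a subunit of respiratory complex I, fell from 3418, 3923 and 4266 CPM to 3034, 2938 and 2982 CPM (log2 -0.37 ± 0.10, adjusted p 0.0036), and COX2 lost its region call without NC replicate 2 or 3 or KD replicate 3.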
